A study of Mus musculus with 6 samples.

Results

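Hgf, Met, Wnt2, Wnt9b, Rspo3, Bmp2 and Bmp6 are 7 signaling genes through which liver endothelial cells (ECs) and their neighbors exchange growth and patterning cues. They were chosen by gene symbol and make up 7 of the 34099 genes counted. For each mouse, the unique molecular identifier (UMI) counts of every member were summed over each cell type of the authors' annotation and over each endothelial cluster. The single-cell libraries came from orthotopic liver tumors of wild type male C57BL/6J mice, obtained at 8 weeks of age. Every mouse in both groups carried H22, a murine hepatocellular carcinoma (HCC) line passed through ascites and implanted in the left liver lobe. The 3 stress mice had gone through chronic unpredictable mild stress, with 2 stressors a day for 21 days, and the 3 control mice had not. Each mouse gave 1 library, so n = 3 mice per group throughout and p-values measure the spread between these mice. The tumor cells come from a single transplanted line, and the endothelium is that of the host.

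The annotation held 58794 cells, 31535 from control and 27259 from stress mice, of which 11433 were ECs. Library totals were 149558935 to 187728350 UMIs, and the median depth per cell ran from 7166 to 20478 UMIs across mice. All control libraries were counted with Cell Ranger 9.0.0 and all stress libraries with 7.1.0, and in every comparison of the groups the effect of stress and that of the counting software cannot be told apart. Of 61374 barcodes, 2580 carried no annotation, and among the annotated cells 386 barcode sequences occurred in 2 or more libraries. The authors annotated cell types by lineage markers in these counts, so marker levels describe the EC label and do not test it. The endothelial clusters differed in these levels, as given below. The summed level of 7 EC genes (Clec4g, Stab2, Ptprb, Eng, Kdr, Cdh5 and Pecam1) was 5296 to 7473 CPM (UMIs of those genes per 1000000 UMIs of the cells summed) in ECs of the 6 mice and 21.5 to 40.3 CPM in tumor cells. Levels below are CPM on this scale and were compared between cells for the same gene, never between genes.

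Hepatocyte growth factor (Hgf) is a secreted ligand that is cleaved to its active form outside the cell and acts through the receptor tyrosine kinase Met, a pathway known for liver growth and for tumor cell motility. Wnt2 and Wnt9b are Wnt ligands, and R-spondin 3 (Rspo3) is a secreted enhancer of Wnt signaling that acts through Lgr receptors. In normal liver these 3 are known products of endothelium near the central vein, where they maintain the pericentral program of hepatocytes. Bmp2 and Bmp6 are bone morphogenetic protein (BMP) ligands of liver sinusoidal ECs, known for setting hepatocyte hepcidin and thereby iron uptake. In GRCm38 (mm10), all 7 are protein-coding genes. Hgf (ENSMUSG00000028864) lies at chr5:16553495-16620152 on the plus strand and Met (ENSMUSG00000009376) at chr6:17463800-17573980 on the plus strand. Wnt2 (ENSMUSG00000010797) lies on the same chromosome as Met, at chr6:17988940-18030585 on the minus strand. Wnt9b (ENSMUSG00000018486) is at chr11:103727364-103749821, minus strand, and Rspo3 (ENSMUSG00000019880) at chr10:29452416-29535867, minus strand. Bmp2 (ENSMUSG00000027358) is at chr2:133552159-133562885, plus strand, and Bmp6 (ENSMUSG00000039004) at chr13:38345107-38500302, plus strand. Annotated genes overlap Hgf (Gm43489 and Gm42975), Rspo3 (Gm20276 and the antisense Gm48159) and Bmp6 (the antisense genes Txndc5 and 4930579J19Rik), and how reads in these overlaps were assigned is not given in the sources used here.

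Sequence upstream of the annotated gene is shown for Hgf, a ligand of most endothelial clusters, and for Wnt2 and Wnt9b, ligands that peaked in a single endothelial cluster. The sequences are from RefSeq on GRCm38.p6, read 5' to 3' on the strand of the gene, where a promoter window existed for 5 of the 7 members. The stretches are chr5:16553245-16553494 (plus strand) for Hgf, chr6:18030586-18030695 (minus strand) for Wnt2 and chr11:103749822-103750071 (minus strand) for Wnt9b. Capitals mark a match to AGATAA or TGATAA or AGATAG or TGATAG on either strand, the forms bound by GATA factors such as the sinusoidal regulator Gata4. These 4 words were picked after the sequences had been seen.
Hgf: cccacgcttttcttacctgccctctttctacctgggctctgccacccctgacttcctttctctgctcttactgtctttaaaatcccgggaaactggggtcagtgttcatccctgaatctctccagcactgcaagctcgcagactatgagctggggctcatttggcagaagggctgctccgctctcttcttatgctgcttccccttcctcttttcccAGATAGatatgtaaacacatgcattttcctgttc
Wnt2: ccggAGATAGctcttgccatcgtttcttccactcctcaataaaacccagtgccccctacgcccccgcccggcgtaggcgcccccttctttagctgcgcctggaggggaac
Wnt9b: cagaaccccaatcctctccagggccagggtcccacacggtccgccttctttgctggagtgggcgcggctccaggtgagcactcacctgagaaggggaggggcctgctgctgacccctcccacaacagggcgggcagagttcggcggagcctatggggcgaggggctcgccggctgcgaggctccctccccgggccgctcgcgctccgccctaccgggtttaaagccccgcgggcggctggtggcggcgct
Hgf held an AGATAG beginning 34 bases before its start at 16553495, and a further RefSeq start of Hgf at 16553901 had none of the 4 words in its window. Wnt2 held an AGATAG beginning 106 bases before the annotated gene and 246 bases before its RefSeq start, which lies inside the annotated gene at 18030445. A TGATAA on the opposite strand also lay 9 bases before that RefSeq start, in a stretch annotated as exon and not printed. The Wnt9b window held none of the 4 words, and neither did the windows of Met and Bmp6, which are not printed. Any of the 4 words occurred in 26.5% (8718 of 32851) of all RefSeq windows of 250 bases, so a match is common and is a description only.

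The 6 ligands had their highest level in ECs in comparison with the other 9 annotated cell types. The receptor gene Met did not, and was highest in monocytes. ECs made up 19.5% of cells and 7.20% of UMIs (means of 6 mice), yet held 94.6% of Hgf, 95.6% of Bmp2, 96.1% of Rspo3, 92.8% of Wnt2, 94.6% of Wnt9b and 87.6% of Bmp6 UMIs. Of Met UMIs, 85.5% came from tumor cells, 7.93% from monocytes and 2.89% from ECs. These levels are descriptions without a test, because the cell types were made from the same counts.

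**Figure D1:**
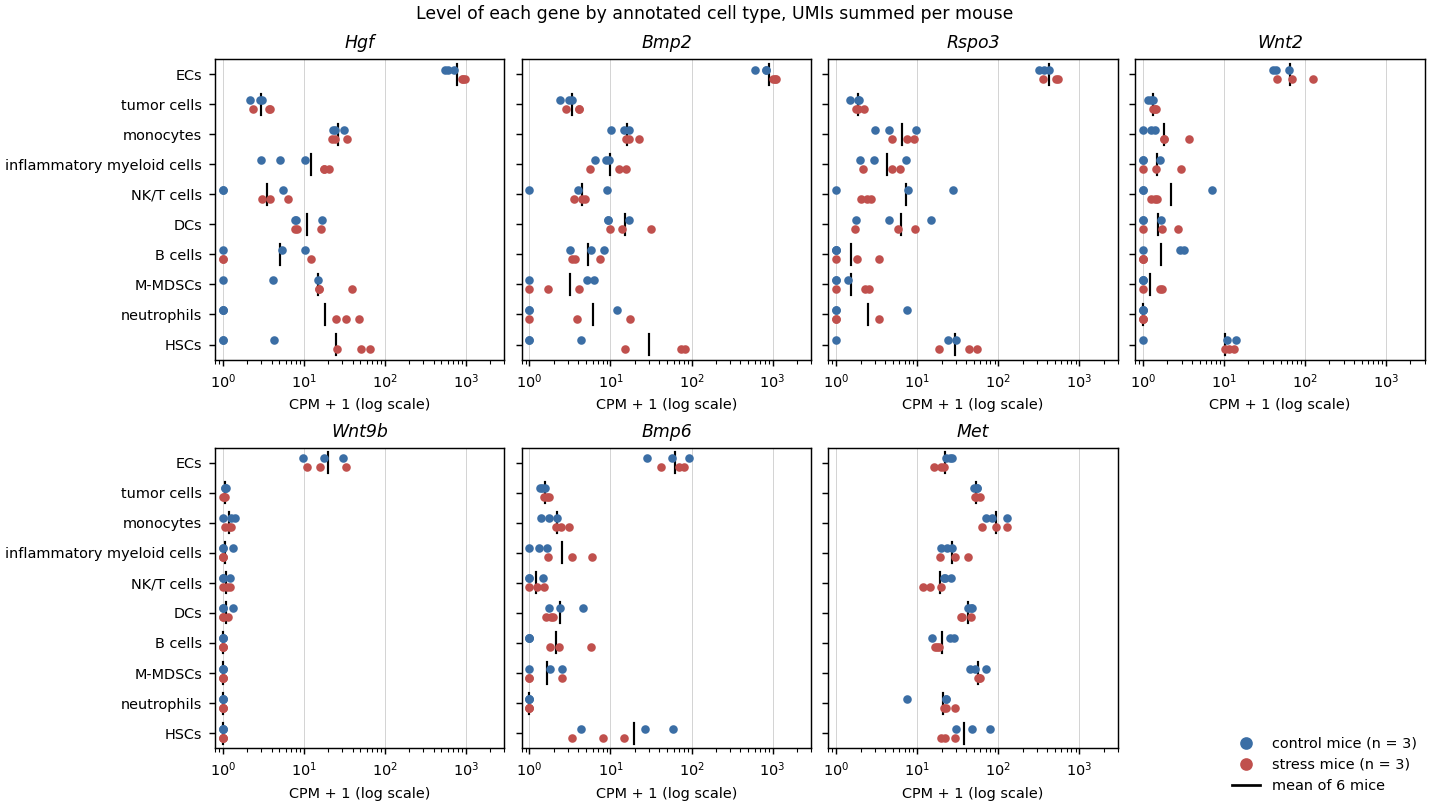
Level of each member in the 10 annotated cell types, as CPM + 1 on a log axis, with 1 point for each of the 6 mice and a black bar at their mean. The 6 ligands stood highest in ECs (Hgf 776 CPM, Bmp2 910 CPM), whereas Met stood highest in monocytes (93.7 CPM) and was also found in M-MDSCs and tumor cells.

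Hgf stood at 776 ± 178 CPM (SD, n = 6 mice) in ECs. The next levels were 25.6 ± 5.07 in monocytes, 23.7 ± 27.8 in hepatic stellate cells (HSCs), 17.0 ± 20.04 in neutrophils and 13.9 ± 13.3 in monocytic myeloid-derived suppressor cells (M-MDSCs), which did not differ beyond their spread. The order went on through inflammatory myeloid cells (11.4), dendritic cells (DCs, 9.84), B cells (4.15), NK/T cells (2.47) and tumor cells (1.99). With every cell thinned to 1000 UMIs, 45.3% of ECs carried an Hgf UMI (exact Clopper-Pearson 95% interval 44.3 to 46.2). The share was 0.215% (0.165 to 0.275) in tumor cells, the type with the lowest mean level. Without thinning the shares were 75.6% and 4.73%, at median depths of 4538 and 27716 UMIs. Monocytes had an Hgf UMI in 2.20% (1.85 to 2.60) of thinned cells. Their ratio of Hgf to EC marker UMIs was 15.9 per 100 (14.5 to 30.9 by mouse), against 11.7 per 100 (8.90 to 13.8) in ECs. Every mouse's monocyte ratio lay above every ratio of all ECs summed. In EC cluster 8 alone the ratio was 16.4 per 100 (9.39 to 22.1), which overlapped with that of monocytes. The part of EC RNA in the monocyte level was not tested. Intervals cover counting error only.

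HSCs, a classical source of Hgf in liver, were few in these tumors, with 23, 6 and 8 cells in the control mice and 26, 15 and 50 in the stress mice. Hgf UMIs in them numbered 1, 0 and 0 in the control mice and 27, 7 and 41 in the stress mice. Bmp2 UMIs numbered 1, 0 and 0 against 6, 23 and 59. The stress mice were thus the ones with counts, but with under 10 cells in 2 mice no test was made. The EC marker sum in HSCs was also uneven, at 30.0, 86.2 and 13.0 CPM in the control and 102, 74.6 and 326 CPM in the stress mice. The HSC marker sum there was 5264 to 22832 CPM. Per 100 EC marker UMIs, of which HSCs held 345 in all, Hgf was 22.0 in HSCs (0 to 62.8 by mouse) and 11.7 in ECs (8.90 to 13.8). Bmp2 was 25.8 in HSCs (0 to 110 by mouse) and 13.6 in ECs (11.6 to 15.6) on that scale. The part of EC RNA in the HSC levels was not tested.

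Bmp2 stood at 910 ± 187 CPM in ECs, followed by 28.6 ± 38.1 in HSCs, 15.2 ± 4.04 in monocytes and 14.1 ± 8.502 in DCs, which overlapped with each other. Rspo3 stood at 420 ± 90.6 CPM in ECs and 27.9 ± 19.1 in HSCs, with 6.25 or less in every other type. Bmp6 stood at 60.8 ± 24.03 CPM in ECs and 18.3 ± 21.1 in HSCs, where a single mouse reached 57.5 on 4 UMIs in 6 cells. Per 100 EC marker UMIs, Bmp6 was 1.79 in tumor cells (1.56 to 2.08 by mouse) and 0.914 in ECs (0.518 to 1.52). That ratio was lower in tumor cells than in ECs for Hgf, Bmp2 and Rspo3, and overlapped for Wnt2 and Wnt9b. The part of EC RNA in the tumor cell levels was not tested. Wnt2 stood at 63.7 ± 31.8 CPM in ECs, 9.23 ± 4.72 in HSCs and 1.22 or less elsewhere. Wnt9b stood at 18.7 ± 9.98 CPM in ECs and at 0.201 or less elsewhere, and had no UMI in B cells, M-MDSCs, neutrophils or HSCs.

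Met showed the reverse arrangement. Its level was 93.7 ± 28.1 CPM in monocytes, 56.0 ± 8.74 in M-MDSCs, 52.8 ± 3.203 in tumor cells, 40.8 ± 5.56 in DCs and 36.9 ± 22.3 in HSCs. M-MDSCs and tumor cells did not differ beyond their spread. M-MDSCs also carried all 6 tumor cell markers used here (Afp, Krt18, Krt8, Cldn6, Epcam and Gpc3), which summed to 549 to 860 CPM by mouse against 696 to 974 CPM in tumor cells, at median depths of 27447.5 and 27716 UMIs per cell. In HSCs the same sum ran from 71.4 to 2313 CPM. The part of tumor RNA in these Met levels was not tested. Lower levels of 26.0 ± 8.75 in inflammatory myeloid cells, 21.1 ± 4.03 in ECs (6.79 as a mean over cells, which weights each cell equally), 19.9 ± 7.14 in neutrophils, 19.3 ± 5.398 in B cells and 18.2 ± 5.21 in NK/T cells overlapped with each other. The ratio of Met to tumor marker UMIs was 6.73 per 100 in tumor cells (5.39 to 7.39 by mouse). It was 6.77 to 10.2 in NK/T cells, M-MDSCs, HSCs, B cells, DCs and ECs, 13.0 in inflammatory myeloid cells (5.24 to 30.5 by mouse) and 35.4 in neutrophils (7.69 to 180 by mouse), which had only 65 tumor marker UMIs. In monocytes it was 68.3 per 100, and 30.6 to 125 in single mice, above the tumor cell value in every mouse. In cells thinned to 1000 UMIs, 8.60% of monocytes (7.92 to 9.33) and 5.27% of tumor cells (5.01 to 5.53) carried a Met UMI, against 0.638% of ECs (0.496 to 0.806) and 0.222% of B cells (0.00563 to 1.23). Without thinning, the shares were 30.7% of monocytes, 66.7% of tumor cells and 6.06% of ECs.

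Within types, Met varied by cluster. Among the 3 monocyte clusters it stood at 145 ± 32.4 CPM in cluster 13, 108 ± 29.2 in cluster 12 and 46.4 ± 17.4 in cluster 11. Of the DC clusters, cluster 19 (779 cells) stood at 56.4 ± 11.4 CPM with 607 Met UMIs and cluster 20 (777 cells) at 8.09 ± 9.21 CPM with 53. The tumor cell markers summed to 522 to 815 CPM by mouse in cluster 19 and 27.1 to 174 CPM in cluster 20, and the part of tumor RNA in this difference was not tested. Among the 10 tumor cell clusters it ran from 18.3 ± 6.28 CPM in cluster 21 to 78.6 ± 11.9 in cluster 17.

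The authors' clustering gave 7 EC clusters, and the ligands differed in the cluster of their highest level. Hgf, Bmp2 and Bmp6 were highest in cluster 2 or 8, the largest with 4789 and 2847 cells. Rspo3, Wnt2 and Wnt9b were highest in cluster 18, a cluster of 989 cells. Met was highest in cluster 16 (1247 cells). As the clusters were built on these counts, these contrasts were not tested.

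**Figure D2:**
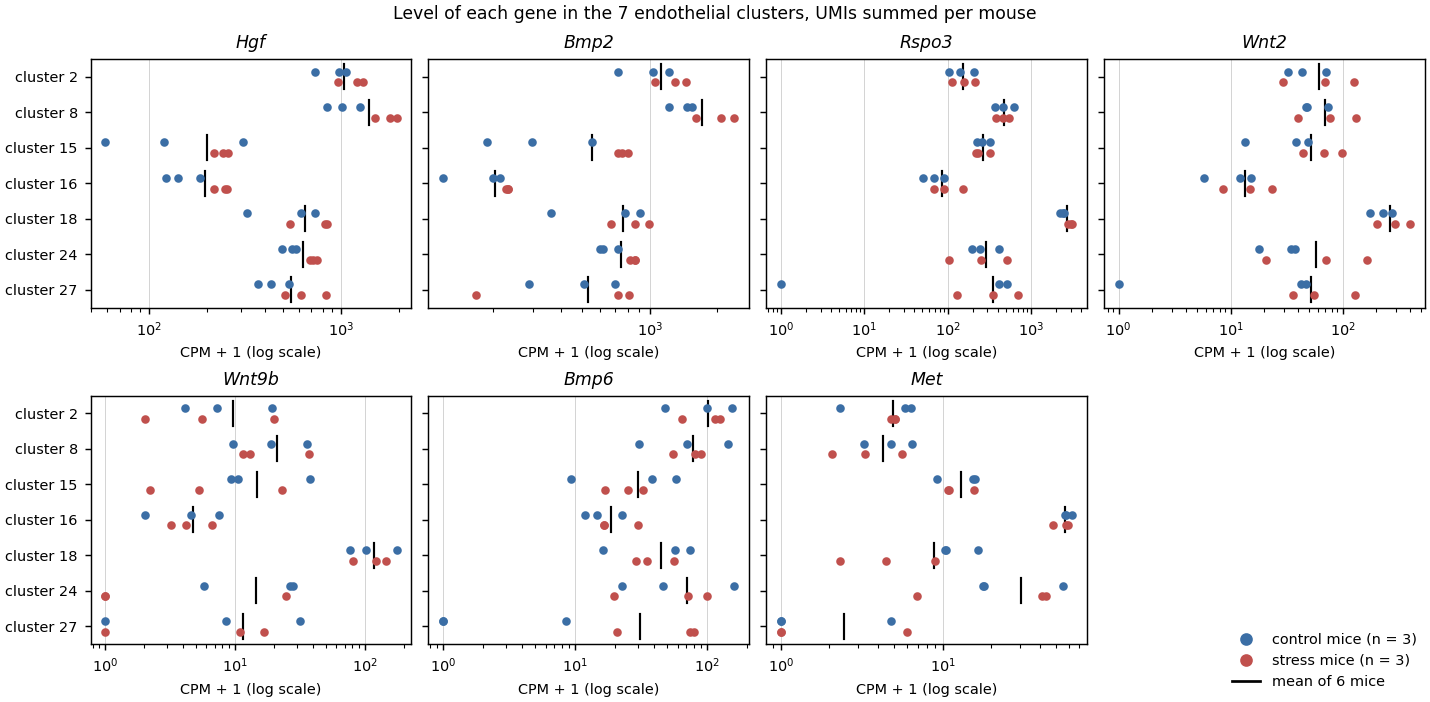
Level of each member in the EC clusters, as CPM + 1 on a log axis, with 1 point per mouse and a black bar at the mean of 6 mice. Rspo3 (2668 CPM), Wnt2 (262 CPM) and Wnt9b (116 CPM) peaked in cluster 18, Hgf (1392 CPM) and Bmp2 (1721 CPM) in cluster 8, Bmp6 (101 CPM) in cluster 2 and Met (56.1 CPM) in cluster 16.

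Rspo3 in cluster 18 was 2416, 2481 and 2197 CPM in the control and 2781, 3022 and 3111 CPM in the stress mice, against a mean of 474 in cluster 8 and 153 in cluster 2. Every mouse had its highest Rspo3 in cluster 18. Wnt2 there was 277, 227 and 174 CPM in the control and 399, 291 and 203 CPM in the stress mice, and 12.4 to 68.7 CPM on average in the other clusters. Wnt9b there was 175, 76.1 and 101 CPM in the control and 144, 79.6 and 120 CPM in the stress mice, against 20.1 in cluster 8 and 8.72 in cluster 2. Cluster 18 held 8.82% of ECs on average but 52.2% of their Rspo3, 54.5% of their Wnt9b and 35.1% of their Wnt2 UMIs. Wnt2 was the least concentrated of these 3, with 28.9% of its EC UMIs in cluster 2 and 24.2% in cluster 8. Cluster 18 held 6.98% of Hgf UMIs, near its share of cells.

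Cluster 18 also had the highest mean level, among the 7 EC clusters, of 5 of the 6 genes listed for the central side of the liver lobule. Thbd, which encodes the anticoagulant thrombomodulin, stood at 1456 ± 543 CPM there, against 835 in cluster 8 and 581 in cluster 2. Kit, a receptor tyrosine kinase of central ECs, stood at 647 ± 233, against 437 and 501. The cadherin gene Cdh13 stood at 578 ± 275, against 353 and 345, and the homeobox gene Lhx6 at 82.4 ± 21.1, against 21.5 and 13.4. The fatty acid binding protein gene Fabp4 stood at 1861 CPM there, against 1254 and 1751. All 7 genes listed for the portal side had a lower mean in cluster 18 than in clusters 2 and 8. The scavenger receptor gene Msr1 stood at 27.6 ± 15.5 CPM against 316 in cluster 2, Efnb2 (ephrin B2) at 40.5 against 181, and the Notch ligand gene Dll4 at 13.9 against 108. Selp, the remaining gene of the central list, which encodes the adhesion molecule P-selectin, was instead highest in cluster 8, at 2600 CPM against 830.5 in cluster 18.

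Single cells gave the same grouping. In 9795 ECs thinned to 2000 UMIs, 76.0% of cells with a Wnt9b UMI also had an Rspo3 UMI, against 22.7% of cells without Wnt9b. Rspo3 was found in 54.0% of cells with and 20.5% of cells without Wnt2, and Wnt2 in 42.1% of cells with and 11.5% of cells without Wnt9b. Each of these 3 differences had the same direction in 6 of 6 mice. Hgf and Bmp2 also went together, with Bmp2 in 82.5% of cells with and 65.8% of cells without Hgf in 6 of 6 mice. Bmp6 went the other way from Rspo3. Rspo3 was found in 16.3% of cells with and 26.0% of cells without a Bmp6 UMI, and no mouse showed the opposite order. These shares describe how the genes fell together in cells that share libraries and clusters.

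**Figure D3:**
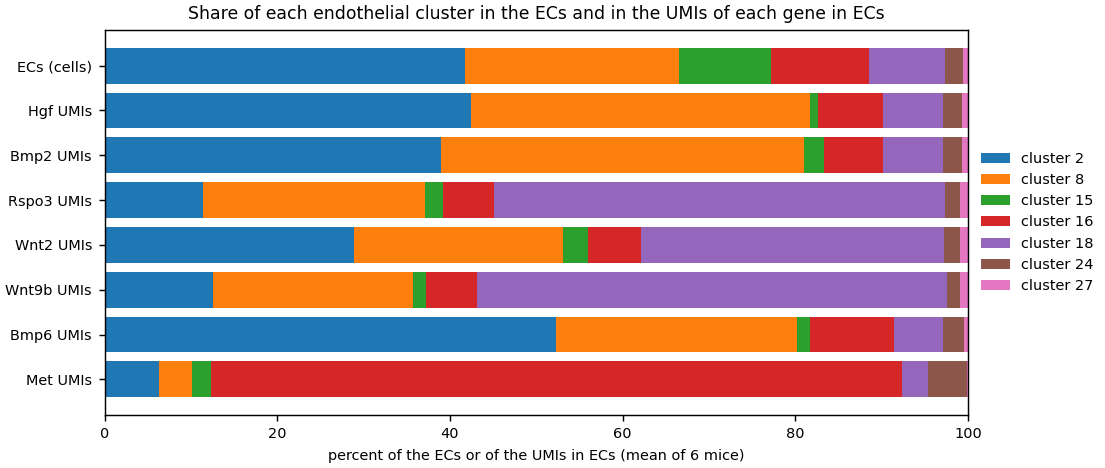
Percent of ECs and of the EC UMIs of each member that came from each EC cluster, as stacked bars of the means of 6 mice. Cluster 18 held 8.82% of ECs but 52.2% of Rspo3 and 54.5% of Wnt9b UMIs, and cluster 16 held 11.3% of ECs but 80.1% of Met UMIs.

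Met had its highest EC level in cluster 16. It was 56.5, 56.1 and 62.1 CPM in the control and 46.9, 58.2 and 56.5 CPM in the stress mice, against means of 3.91 in cluster 2 and 3.26 in cluster 8. Cluster 24, with 67 Met UMIs in all, ran from 5.90 to 54.3 CPM by mouse and overlapped with it. Cluster 16 carried 80.1% of EC Met UMIs in 11.3% of ECs. It also carried tumor cell markers, summing to 565 CPM (456 to 714 by mouse) against 789 in tumor cells and 31.3 in cluster 2, and its EC marker sum was 1642 CPM against 10310 in cluster 2. A doublet caller marked 47.3% of its cells, against 9.11% of all ECs and 1.40% of cluster 2. The 590 marked cells had a median of 30582.5 UMIs, with Met at 57.6 CPM and the keratin gene Krt18 at 274 CPM. The 657 other cells had a median of 1572 UMIs, with Met at 42.5 CPM and Krt18 at 165 CPM. The ratio of Met to tumor marker UMIs in cluster 16 was 9.87 per 100 (6.57 to 12.7 by mouse), against 6.73 (5.39 to 7.39) in tumor cells. In cluster 24 it was 134 per 100 on 50 tumor marker UMIs. The part of tumor RNA in the EC level of Met was not tested further. Clusters 24 and 27, with 229 and 73 cells, had marked shares of 89.1% and 57.5%.

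The genes most like each member were found by Pearson correlation of log2 levels over 155 sums of cells (mouse by cluster, at least 20 cells) among 10958 genes with a mean of at least 5 CPM. These sums share mice and cell types, so the values are descriptions. Hgf was most like Plxnd1 (r = 0.945), the semaphorin receptor plexin D1 of endothelium, then Bmp2 (0.940) and Srgap1 (0.939). Bmp2 was most like Gpr182 (0.974), a receptor of sinusoidal ECs, Stab2 (0.968), a scavenger receptor of the same cells, and Cyyr1 (0.965). Rspo3 was most like Wnt2 (0.948), Jam2 (0.947), a junction gene, and Plvap (0.944), a gene of endothelial diaphragms. Wnt2 was most like Nkd1 (0.954), an inhibitor and target of Wnt signaling, Fmo1 (0.952) and Rspo3 (0.948). The genes most like Wnt9b included Bcam (0.890) and Fmo1 (0.888), and Bmp6 was most like 4930578G10Rik (0.947), Afap1l1 (0.942) and Plxna2 (0.938). Met had weaker matches, with Rhou (0.817), Aifm2 (0.814) and the fibronectin gene Fn1 (0.812).

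To ask whether chronic stress changed these signals in the endothelium, UMIs of all ECs were summed per mouse and compared by edgeR. None of the 7 members passed the adjusted threshold of 0.05, in a comparison that called 30 of 14090 genes (0.213%) and had 2205 at an unadjusted p under 0.05. Hgf and Bmp2 were higher in each stress mouse than in any control mouse, and Met was lower. Non-overlap of this kind with stress higher was found for 12.5% of all genes tested, and with stress lower for 10.3%.

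Hgf in ECs was 706, 559.5 and 601 CPM in the control mice and 897, 981 and 912 CPM in the stress mice. The groups did not overlap. The log2 fold change was 0.55 ± 0.12 (SE), with an adjusted p of 0.133 by edgeR, and DESeq2 gave an adjusted p of 0.00517 for a log2 fold change of 0.55. Bmp2 in ECs was 834, 614 and 823 CPM in the control and 1059, 1113 and 1014 CPM in the stress mice, again without overlap. Its log2 fold change was 0.46 ± 0.15 with an edgeR adjusted p of 0.236. Met in ECs was 26.0, 22.0 and 24.5 CPM in the control and 18.7, 20.3 and 14.9 CPM in the stress mice. Its log2 fold change was -0.45 ± 0.15 with an edgeR adjusted p of 0.239, and without cluster 16, where most EC Met lay, it was -0.14.

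**Figure D4:**
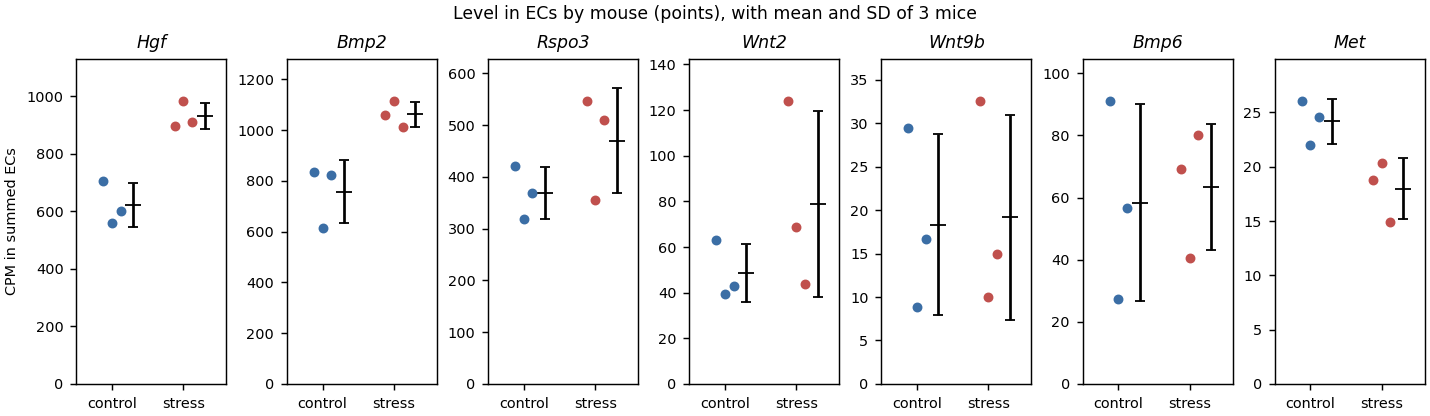
Level of each member in ECs in CPM on a linear axis from 0, with 1 point per mouse for 3 control and 3 stress mice and the mean ± SD beside them. Hgf (559.5 to 706 against 897 to 981 CPM) and Bmp2 (614 to 834 against 1014 to 1113 CPM) did not overlap between groups, and the Wnt ligands and Bmp6 did.

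Several other values moved with Hgf and Bmp2 in ECs. The EC marker sum was 5976, 5296 and 6756 CPM in the control and 7420, 7119 and 7473 CPM in the stress mice, and the 11 sinusoidal genes summed to 7577, 7605 and 8901 against 9325, 10022 and 10552 CPM. Neither sum overlapped between groups. Per 100 EC marker UMIs, Hgf was 11.8, 10.6 and 8.90 in the control and 12.1, 13.8 and 12.2 in the stress mice, which did not overlap. The group means were 10.4 and 12.7 on that scale, a smaller relative difference than the 622 and 930 CPM of the plain levels. Bmp2 was 13.96, 11.6 and 12.2 against 14.3, 15.6 and 13.6 on that scale, where the groups overlapped. Cluster 8 made up 28.7%, 28.4% and 30.2% of ECs in the control and 18.3%, 18.04% and 25.3% in the stress mice, and cluster 15 made up 1.73%, 4.94% and 5.35% against 11.3%, 23.1% and 17.7%. The part of these shifts in the summed EC levels was not tested.

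The Wnt arm and Bmp6 did not separate the groups. Wnt2 in ECs was 63.1, 39.4 and 43.0 CPM in the control and 124, 68.9 and 43.8 CPM in the stress mice, and the value of stress mouse 1 was the highest. Its log2 fold change was 0.68 ± 0.37 with an edgeR adjusted p of 0.429. Rspo3 was 420.2, 319 and 368 CPM against 546, 355 and 509.8 CPM, at 0.33 ± 0.19 and an edgeR adjusted p of 0.455. Both groups held low and high values for the remaining ligands, Wnt9b and Bmp6. Control mouse 2 and stress mouse 2 were the lowest of their groups for both genes. Wnt9b was 29.5, 8.81 and 16.6 CPM against 32.5, 9.99 and 14.97 CPM, at 0.05 ± 0.54 and an edgeR adjusted p of 0.975. Bmp6 was 90.9, 27.4 and 56.6 CPM against 69.3, 40.7 and 80.1 CPM, at 0.10 ± 0.43 and an edgeR adjusted p of 0.927. With these SEs, which come from fits without a replicate block, a change of log2 0.5 in Wnt9b or Bmp6 was not detectable here.

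With cells thinned to one depth, the share of ECs with a UMI separated the groups for Hgf, but not for Bmp2 or Met. How many of all genes separate the groups on this measure was not counted, so non-overlap here has no background share beside it. After thinning to 1000 UMIs (10823 ECs, 610 shallower ones left out), an Hgf UMI was found in 43.1%, 40.8% and 40.1% of ECs in the control and 52.7%, 49.5% and 46.4% in the stress mice. The groups did not overlap, and the difference of 8.21 percentage points gave p = 0.1 in the exact two-sided permutation test over mice, the smallest value that 3 against 3 mice allow. Without thinning the Hgf shares overlapped, with a difference of 2.93 points (exact permutation p = 0.6), whereas those of Met did not, at 7.29%, 6.45% and 7.07% in the control and 5.71%, 5.33% and 4.87% in the stress mice (exact permutation p = 0.1). Bmp2 was found in 58.8%, 47.5% and 56.6% of thinned ECs in the control and 64.8%, 64.1% and 57.6% in the stress mice, which overlapped, a difference of 7.88 points with p = 0.2 in the exact permutation test. The shares of Wnt2 (3.02 points higher under stress), Rspo3 (0.314), Met (0.00514), Wnt9b (-0.00527) and Bmp6 (-0.48) overlapped between groups.

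Within single EC clusters, none of the members passed the adjusted threshold either. The background shares of genes called by edgeR were 0.196% (22 of 11229) in cluster 2, 0.278% (29 of 10415) in cluster 8, 0.153% (8 of 5226) in cluster 15, 0.636% (74 of 11632) in cluster 16 and 1.02% (87 of 8529) in cluster 18. Every stress mouse lay above every control mouse for 8.18% of all genes tested in cluster 8, 9.4% in cluster 15, 11.6% in cluster 16 and 11.8% in cluster 18. Hgf in cluster 8 was 1259, 1007 and 839 CPM in the control and 1799, 1944 and 1506 CPM in the stress mice. The groups did not overlap, and the log2 fold change was 0.77 ± 0.19 with an edgeR adjusted p of 0.253. It became 0.0164 with DESeq2 and 0.0089 without the filter on low counts, and the highest adjusted p over the edgeR and DESeq2 alternatives was 0.641. In cluster 2 the groups overlapped, with 1057, 733 and 968 CPM in the control and 1203, 1295 and 966 CPM in the stress mice, at 0.29 ± 0.19 (edgeR adjusted p = 0.544). The test of the difference between the clusters 8 and 2, as an interaction term, gave 0.47 ± 0.11 for Hgf with an edgeR adjusted p of 0.108. That test called 0.454% of genes (52 of 11459) and none of the 7 members. Without control mouse 2 the Hgf value was 0.61 with an adjusted p of 0.0118 by edgeR. Over all alternatives of this test, its edgeR adjusted p ran from 1.99e-08 to 0.359. Hgf in cluster 16 was 183, 121 and 140.3 CPM in the control and 252, 217 and 248 CPM in the stress mice, without overlap, at 0.66 ± 0.16 (edgeR adjusted p = 0.117). It passed with no filter, with the replicate block and with DESeq2, and its adjusted p ran from 0.0149 to 0.369 over the edgeR and DESeq2 alternatives. Bmp2 in cluster 16 was 198, 118 and 213 CPM against 231, 232 and 226 CPM, also without overlap, at 0.35 ± 0.20 (edgeR adjusted p = 0.462).

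Bmp2 in cluster 8 was 1542, 1217 and 1465 CPM in the control and 2394, 2095 and 1614 CPM in the stress mice, at 0.54 ± 0.20 (edgeR adjusted p = 0.376). In cluster 15, a shallow cluster with a median of 1212 UMIs per cell, Bmp2 was 185, 298 and 553 CPM in the control and 721, 749 and 797 CPM in the stress mice. There the log2 fold change was 1.17 ± 0.34 with an edgeR adjusted p of 0.169. It passed with no filter, with the replicate block and with DESeq2, and its adjusted p ran from 0.00971 to 0.516 over the edgeR and DESeq2 alternatives. The EC marker sum in cluster 15 also ran lower in the control mice, at 2352, 2932 and 6502 CPM against 6020, 5806 and 7186 CPM. The part of that difference in the Bmp2 value was not tested. Rspo3 in cluster 18, given above, did not overlap between groups, at 0.31 ± 0.15 (edgeR adjusted p = 0.337). Wnt2 and Wnt9b overlapped in cluster 18, at 0.38 ± 0.26 and -0.03 ± 0.31 (edgeR adjusted p = 0.505 and 0.976). Cluster 18 held 44.0%, 50.6% and 47.3% of EC Rspo3 UMIs in the control and 60.9%, 56.2% and 54.4% in the stress mice, without overlap. The share of cluster 8 was 32.4%, 27.9% and 30.6% against 17.7%, 20.4% and 25.5%, also without overlap. The Rspo3 level in cluster 8 overlapped, with means of 484 and 464 CPM. The other members tested in clusters 2, 8, 15, 16 and 18 had overlapping groups and edgeR adjusted p of 0.283 or more.

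**Figure D5:**
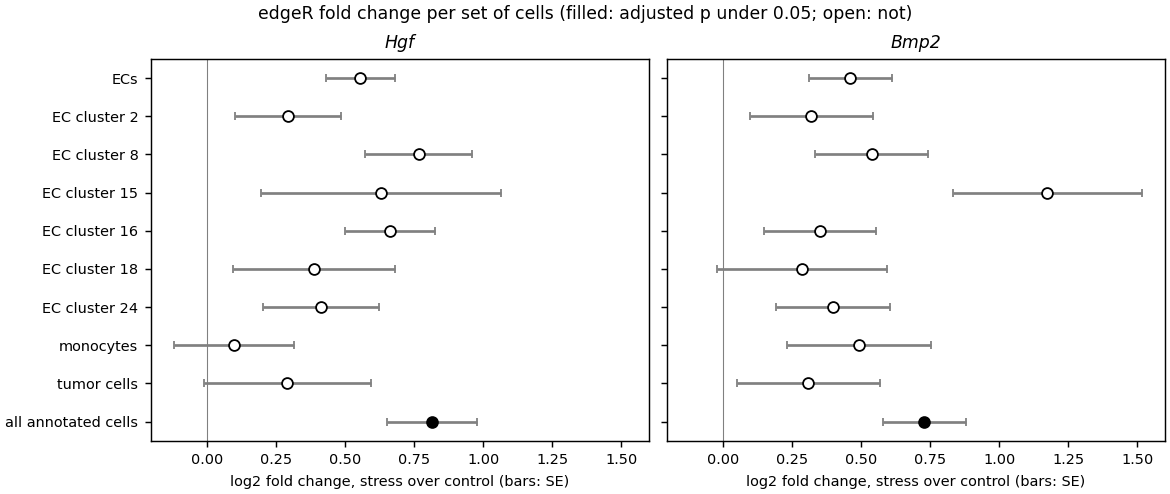
Log2 fold change of Hgf and Bmp2, stress against control, with its SE, in ECs, single EC clusters, monocytes, tumor cells and all annotated cells, where a filled point marks an edgeR adjusted p under 0.05. The filled points are those of all annotated cells (Hgf 0.81, Bmp2 0.73), and the values in ECs were 0.55 and 0.46.

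Over all annotated cells of a mouse, Hgf and Bmp2 rose by edgeR, and these were 2 of the 7 members in a comparison that called 10.1% of genes (2080 of 20601). Hgf was 43.6, 42.4 and 36.5 CPM in the control and 61.9, 74.9 and 103 CPM in the stress mice. The log2 fold change was 0.81 ± 0.16 with an edgeR adjusted p of 0.0333. Bmp2 was 51.4, 45.5 and 49.3 CPM against 72.5, 84.3 and 114 CPM, with 0.73 ± 0.15 and an edgeR adjusted p of 0.0353. For both genes the groups did not overlap, as for Wnt2 and Rspo3, and 26.4% of all genes tested in this sum had every stress mouse above every control mouse. Both calls were lost when any 1 of the 6 mice was left out, with edgeR adjusted p from 0.0511 to 0.14 for Hgf and 0.0543 to 0.137 for Bmp2. This sum mixes the number of ECs with the RNA in each, and more cells of a type and more RNA per cell cannot be told apart in it. ECs were 18.6%, 17.9% and 16.4% of cells in the control and 21.5%, 20.7% and 22.1% in the stress mice, and 5.86%, 6.999% and 5.79% of UMIs against 6.62%, 7.20% and 10.7%. The other ligands did not pass, with Wnt2 at 0.87 ± 0.31 (edgeR adjusted p = 0.111), Rspo3 at 0.61 ± 0.25 (0.152), Bmp6 at 0.44 ± 0.45 (0.516) and Wnt9b at 0.25 ± 0.52 (0.759). With the replicate block Wnt2 passed (edgeR adjusted p = 0.0282), and its highest adjusted p over the edgeR and DESeq2 alternatives was 0.302. Met was 46.9 to 52.6 CPM in all 6 mice, at -0.13 ± 0.10 (edgeR adjusted p = 0.396) under TMM scaling and at 0.018 on library totals, the scale of the CPM values. Library totals raised the median of all genes in this sum by 0.15 on the log2 scale, and moved the share of called genes that were higher from 63.7% to 83.8%. Hgf and Bmp2 also passed on that scale, at 0.97 and 0.89 (edgeR adjusted p = 0.0333 and 0.0305).

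Met was next compared where its UMIs mostly lay. In tumor cells it was 53.4, 49.0 and 53.7 CPM in the control and 52.5, 58.1 and 50.03 CPM in the stress mice, and the groups overlapped. Its log2 fold change was -0.10 ± 0.09 with an edgeR adjusted p of 0.459 under TMM scaling and turned to 0.042 on library totals, the scale of the CPM values. That comparison called 21.4% of genes (4041 of 18856, 55.9% of them higher) and none of the 7 members, and library totals moved the median of all genes there by 0.14 on the log2 scale (3315 called, 81.7% of them higher). In monocytes it was 83.5, 69.8 and 126 CPM in the control and 92.1, 62.2 and 128 CPM in the stress mice, at 0.08 ± 0.33 (edgeR adjusted p = 0.941). The monocyte comparison called 0.122% of genes (15 of 12251), and none of the 4 members tested. Hgf in monocytes was 30.8, 23.2 and 21.8 CPM against 33.3, 21.4 and 23.3 CPM, at 0.10 ± 0.22 (edgeR adjusted p = 0.878). In inflammatory myeloid cells Hgf was 1.96, 9.47 and 4.15 CPM against 19.7, 16.8 and 16.6 CPM, without overlap, but with 143 UMIs in all and an edgeR adjusted p of 0.994. That comparison called 0 of 9219 genes (0%) by edgeR.

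In M-MDSCs the Hgf level rested on 103 UMIs in all, with 15, 108 and 83 cells in the control and 25, 50 and 69 in the stress mice. Hgf there was 0, 13.8 and 3.19 CPM in the control and 37.96, 14.2 and 14.3 CPM in the stress mice, without overlap. The log2 fold change was 1.502 ± 0.62 with an edgeR adjusted p of 0.457, which became 0.0174 with no filter on low counts. The highest adjusted p over the edgeR and DESeq2 alternatives was 0.833. The background share of genes called was 0.561% in M-MDSCs, 0.857% in NK/T cells, 2.64% in DCs and 0.136% in EC cluster 24. None of the 2, 2, 4 and 6 members tested in these sets passed by edgeR. In NK/T cells Met was 20.4, 25.0 and 20.8 CPM in the control and 13.3, 18.5 and 10.9 CPM in the stress mice, without overlap, at -0.58 ± 0.27 (edgeR adjusted p = 0.375). In cluster 24 Hgf and Bmp2 did not overlap either, at 0.41 ± 0.21 and 0.40 ± 0.21 (edgeR adjusted p = 0.775 and 0.784). Among all genes tested, every stress mouse lay above every control mouse for 3% in inflammatory myeloid cells, 7.64% in M-MDSCs and 6.05% in cluster 24, and below for 13.3% in NK/T cells.

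The partners of these ligands were taken from lists of 29 HGF-MET, 75 Wnt and 54 BMP pathway genes (53 of the last found among the counted genes), in which the members themselves are not counted. In ECs, 22, 42 and 35 of them were tested and none passed the edgeR threshold. The median log2 fold changes were 0.01, -0.01 and 0.07, beside -0.01 for all genes tested. Among receptors in ECs, Bmpr2, the type II BMP receptor, was 887 ± 119 CPM in the control and 992 CPM in the stress mice, at 0.14 ± 0.16. Eng, the co-receptor endoglin, was 582 ± 99.99 and 708 CPM, at 0.25 ± 0.17. Fzd4, a Wnt receptor of endothelium, was 138 ± 10.0 and 149 CPM, at 0.09 ± 0.14. Nrp1, a co-receptor for HGF among other ligands, was 195, 156 and 221 CPM in the control and 245, 265 and 266 CPM in the stress mice, at 0.41 ± 0.15 (edgeR adjusted p = 0.263). Plaur, the urokinase receptor, was 116, 113 and 127 CPM against 93.3, 90.1 and 80.8 CPM, at -0.46 ± 0.11 (edgeR adjusted p = 0.143). Id3, a target of BMP signaling, was 546, 593 and 581 CPM against 683, 624 and 771 CPM, at 0.25 ± 0.12 (edgeR adjusted p = 0.381), and Id2, another, was 258, 126 and 261 CPM against 135, 110.2 and 153 CPM, at -0.72 ± 0.29 (0.3). Nkd1 was 24.1, 27.2 and 26.4 CPM against 39.0, 32.5 and 37.1 CPM, at 0.46 ± 0.12 (edgeR adjusted p = 0.173). Wls, which carries Wnt ligands to the cell surface, was 101, 127 and 105 CPM against 127, 136 and 175 CPM, at 0.37 ± 0.15 (edgeR adjusted p = 0.308).

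In tumor cells, the lists were read against the 21.4% of genes called there. Of 26 HGF-MET genes tested, 3 rose and 2 fell by edgeR. F12, a protease that can activate HGF, was 3.30, 6.05 and 2.55 CPM in the control and 8.498, 15.2 and 11.5 CPM in the stress mice (1.42 ± 0.31, edgeR adjusted p = 0.0209). Spint2, an inhibitor of HGF-activating proteases, was 2.14, 2.72 and 2.08 against 4.31, 6.58 and 8.36 CPM (1.32 ± 0.23, edgeR adjusted p = 0.00975). St14, which encodes matriptase, rose from a level of 0.0988 CPM or less (2.81 ± 0.47, edgeR adjusted p = 0.00917), and Stat3, a transcription factor downstream of Met and other receptors, fell by 0.62 on the log2 scale (SE 0.13, edgeR adjusted p = 0.0158). Proteases of the ligand (F12 and St14) and an inhibitor of such proteases (Spint2) were thus all called higher, at low levels. Tumor cells held 86.9% of all UMIs in the control and 77.5% in the stress mice on average, with overlapping groups. The part of RNA from other cells in these and the further low levels below was not tested. Of 46 Wnt genes tested, 6 rose and 2 fell by edgeR. Those that rose included Wnt5b (0.68, 0.718 and 0.714 against 1.62, 2.43 and 1.85 CPM, 1.33 ± 0.19, edgeR adjusted p = 0.00612) and Lgr5, an R-spondin receptor and Wnt target (1.17, 1.29 and 0.973 against 1.79, 2.08 and 2.21 CPM, 0.68 ± 0.17, edgeR adjusted p = 0.0302). Lgr4, another R-spondin receptor, fell, at 25.0, 22.3 and 23.7 against 18.7, 17.9 and 21.5 CPM (-0.43 ± 0.11, edgeR adjusted p = 0.0304). Of 40 BMP genes, 3 rose and 3 fell, with Smad9 up by 1.56 ± 0.25 (edgeR adjusted p = 0.00847) and Chrd, a BMP antagonist, down at -0.89 ± 0.26 (0.0498), both at 0.644 CPM or less. Of 8 pericentral Wnt target genes tested, Oat fell from 67.8, 66.5 and 67.6 to 54.8, 53.3 and 48.3 CPM (-0.51 ± 0.09, edgeR adjusted p = 0.012), and Slc1a2 and Lgr5 rose. Shares of 5 of 26, 8 of 46, 6 of 40 and 3 of 8 genes called are to be read beside that background share. On library totals the genes that rose numbered 3, 6, 4 and 2 and those that fell 1, 0, 0 and 1, with Stat3 and Oat called and Lgr4 and Chrd at -0.29 and -0.75 not called (edgeR adjusted p = 0.104 and 0.086).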

How the data were processed

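Single-cell RNA-seq libraries of orthotopic H22 tumors were made by the authors on the 10x Genomics Chromium platform from 3 control and 3 stress mice. The deposited matrices hold raw UMI counts per gene and barcode, counted by the authors with Cell Ranger against mm10, with version 9.0.0 for the control and 7.1.0 for the stress libraries per the file headers. The annotation release and alignment settings were not given in the sources used here. The authors' deposited table gave cell types and Seurat clusters. Per the methods, they removed cells over 20% mitochondrial reads or under 200 genes, and doublets with Scrublet. No cell of that table was removed here, and doublet calls were recomputed with Scrublet (scanpy 1.11.5) per library only to describe clusters.

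Counts were summed per mouse and cell set and tested with edgeR 4.0.16 (quasi-likelihood F test, filterByExpr, TMM, Benjamini-Hochberg over all genes tested, threshold 0.05), one fit per set with at least 10 cells in every mouse. Shares of cells were taken after thinning to 1000 UMIs and compared by exact permutation over mice. DESeq2 1.42.0, RLE scaling, no filter, a replicate block, leaving out each mouse, other EC definitions and 2000 UMIs were alternatives. The fit without EC cluster 16 and scaling by library totals in place of TMM were added after seeing the data. In the EC comparison, counts simulated for 13904 genes gave back 83 of 99 genes changed by log2 1 and 22 of 97 changed by 0.5. There were 8 false calls. Every simulated gene had the same dispersion, so these shares do not hold for members with larger SEs. The 7 members were named genes throughout. From the pathway lists, up to 4 called genes with the largest change and up to 3 genes with the highest level per role could be named. The members and lists were chosen with earlier results of these data known. Gene positions are from GENCODE M21. One result of the search for similar genes is not reported here.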

Additional observations from a re-analysis of the deposited data

Results flagged for a closer look

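UMIs of all 7 members were also found in the 2580 barcodes that the annotation leaves out and no comparison uses. A member was flagged where it had more than 3 UMIs there. They numbered 2208 for Met, 732 for Bmp2, 645 for Hgf, 207 for Rspo3, 73 for Bmp6, 44 for Wnt2 and 8 for Wnt9b. As levels, Met stood at 55.7 CPM there, near its 52.8 CPM in tumor cells, and Hgf at 16.3 CPM and Bmp2 at 18.5 CPM, far under their EC levels of 776 and 910 CPM. By mouse, Hgf ran from 7.36 to 24.1 CPM in these barcodes.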

How the results depend on the processing

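The number of genes called, with no filter, with the replicate block, with DESeq2 and over the fits without 1 mouse, was 107, 131, 368 and 3 to 46 in ECs (main value 30), 214, 205, 168 and 3 to 64 in monocytes (15), 120, 74, 139 and 0 to 169 in cluster 2 (22), 424, 51, 116 and 9 to 137 in cluster 8 (29), 234, 192, 82 and 5 to 39 in cluster 15 (8), 433, 230, 214 and 16 to 194 in cluster 16 (74), and 466, 285, 154 and 11 to 185 in cluster 18 (87). In M-MDSCs (53) it was 321, 124, 82 and 25 to 90. Over all cells it was 3431 with the block, 3927 with DESeq2 and 0 to 2496 without 1 mouse, in tumor cells 1191 to 5790 without 1 mouse, and for cluster 8 against 2 it was 251 with no filter and 10 to 180 without 1 mouse. The causes were not tested.

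Hgf in ECs passed the threshold with DESeq2 at 0.55 and ran from 0.48 to 0.64 without 1 mouse (edgeR adjusted p 0.138 to 0.357). Hgf in cluster 16 passed with no filter, the block and DESeq2 (adjusted p 0.0149, 0.0254 and 0.0201), as did Bmp2 in cluster 15 (0.00971, 0.0289 and 0.0242). Hgf in cluster 8 against 2 passed with no filter (adjusted p = 1.99e-08). The highest adjusted p over the edgeR and DESeq2 alternatives was 0.369 for Hgf in cluster 16 and 0.516 for Bmp2 in cluster 15. Over the edgeR alternatives of the cluster 8 against 2 test it was 0.359. Hgf in M-MDSCs passed with no filter (1.497, edgeR adjusted p = 0.0174) and ran from 0.99 to 2.87 without 1 mouse. Wnt2 over all cells passed with the block (0.83, edgeR adjusted p = 0.0282).

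Scaling by library totals in place of TMM was chosen after seeing the data. It turned Met to 0.018 over all cells and 0.042 in tumor cells, moved the median of all genes by more than 0.1 in 5 sets of cells and moved the share of called genes that were higher from 80.6% to 61.0% in DCs. Low or uneven members also turned direction elsewhere. In ECs, Wnt9b was -0.012 in clusters 2, 8 and 18, -0.13 when thinned, -0.091 without cluster 16 and -0.58 to 0.56 without 1 mouse, and Bmp6 was -0.083, -0.028 and -0.12 in the same settings, -0.058 without called doublets and -0.24 to 0.56 without 1 mouse. Without 1 mouse the ranges were -0.24 to 0.68 for Wnt9b over all cells, -0.27 to 0.40 for Met and -0.081 to 0.24 for Hgf in monocytes, -0.015 to 0.56 for Bmp2 and -0.26 to 0.39 for Wnt9b in cluster 18 (0.012 with no filter), and -0.13 to 0.13 for Wnt2 in cluster 8 against 2. The EC shares, in percentage points, were -1.64 for Met, 0.0235 for Wnt9b and -0.243 for Rspo3 with no thinning, -0.0331 for Met, 0.109 for Wnt9b and 0.0792 for Bmp6 without cluster 15, and without 1 mouse -0.0487 to 0.081 for Met, -0.895 to 0.883 for Wnt9b, -1.62 to 2.09 for Rspo3 and -2.45 to 1.52 for Bmp6. As a mean over cells, EC levels were 961 for Hgf, 6.79 for Met, 528 for Rspo3 and 1133 CPM for Bmp2.

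The replicate numbers are shared by control and stress mice. Same-numbered mice had correlations of their deviations of 0.571, 0.434 and 0.0162 in ECs and 0.496, 0.39 and -0.129 in tumor cells. The values were thus higher for numbers 1 and 2 than for 3, and a shared effect of the number was not tested. The labels do not say that a number marks a shared batch or day, so the main tests did not pair the mice. With the replicate block, Hgf in ECs was 0.56 (edgeR adjusted p = 0.0748). The filter on low counts left 4 of the 7 members to be tested in monocytes and 2 in M-MDSCs, so that nothing is said of the others there.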
